A study of Mus musculus with 15 samples.

Results

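Erythropoietin acts on cells through its receptor and the JAK-STAT pathway, and 10 genes of that pathway were examined in mouse forebrain: the receptor gene Epor, the kinase gene Jak2, the transcription factor genes Stat3, Stat5a and Stat5b, the feedback genes Socs2, Socs3 and Cish, and the target genes Pim1 and Bcl2l1. The members were all probe sets, that is, groups of short oligonucleotides for one transcript, that the platform annotation assigned to 1 of these symbols alone, which gave 27 of 45037 non-control probe sets. Of these, 22 were bright enough to be tested. The study measured total RNA of forebrain on 15 arrays in 3 groups of 5. EPO-HI (arrays 11 to 15) received erythropoietin at 5 U per g into the peritoneum 1 h before hypoxic ischemia, an injury in which blood supply and oxygen are cut together. VEH-HI (arrays 6 to 10) received vehicle 1 h before the same injury, and VEH-Sham (arrays 1 to 5) received vehicle 1 h before sham surgery. No group received erythropoietin with sham surgery, so an effect of the hormone in uninjured forebrain was not analysed here. The sources used here do not give strain, age, sex or how long after the injury the tissue was taken. Since no label states that each array stands for its own animal, p-values cover only the spread between these samples, and that spread may be technical.

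The erythropoietin receptor has no kinase activity of its own. Binding of the hormone activates JAK2, which is bound to the receptor's inner side, and JAK2 phosphorylates the receptor and then STAT5A and STAT5B, which enter the nucleus and switch on target genes. Among these targets are Cish and Socs2, whose proteins dampen the same signal, Pim1, which encodes a survival kinase, and Bcl2l1, which encodes the anti-apoptotic protein BCL-XL. STAT3 is driven mainly by cytokines of the interleukin-6 family and switches on Socs3, whose protein blocks JAK kinases and the receptors bound to them. In the brain, Epor is expressed at low levels by neurons, glia and endothelium, and STAT3 with its target Socs3 is active in reactive astrocytes and microglia. Phosphorylation, the step by which the pathway signals, is not visible to an array, which measures transcript levels only.

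The STAT dimer motif TTCNNNGAA, which is its own reverse complement, was searched in the RefSeq promoter windows of assembly GRCm38.p6, which run from 250 bases before to 50 bases after each start. Of 32851 windows, 2726 held it (8.30%) and 150 held it 2 or more times (0.457%). The 14 windows of 9 members were searched, and those of Socs3 and Cish held it. These stretches are shown because the text contrasts both genes as feedback inhibitors, and the capitals mark the motif. Socs3 had 1 match in the stretch at chr11:117969367-117969616 on the minus strand, with its first base at position -154 from this start; the annotated gene (chr11:117966079-117970336) also reaches upstream of it. Cish (gene at chr9:107296659-107302784) had 2 matches in the stretch at chr9:107296409-107296678 on the plus strand, at positions 1 and 12, where position 1 is the first transcribed base. A match describes these letters and is not evidence of binding.
Socs3: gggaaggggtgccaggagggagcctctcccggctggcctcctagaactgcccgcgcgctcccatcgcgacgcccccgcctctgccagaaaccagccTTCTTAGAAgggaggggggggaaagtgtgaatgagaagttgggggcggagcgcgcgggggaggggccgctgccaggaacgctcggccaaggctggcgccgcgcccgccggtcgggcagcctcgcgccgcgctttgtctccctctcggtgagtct
Cish: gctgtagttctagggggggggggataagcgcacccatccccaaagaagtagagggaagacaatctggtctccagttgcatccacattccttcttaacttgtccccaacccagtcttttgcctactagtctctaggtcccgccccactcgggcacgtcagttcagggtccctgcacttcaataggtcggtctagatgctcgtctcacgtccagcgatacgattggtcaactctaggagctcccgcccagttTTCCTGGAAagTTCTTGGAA

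Values are the deposited intensities as log2(intensity + 16), and differences are on this scale, on which changes of dim probe sets are understated. The arrays fell into sets that cross the groups at 1 array only. Median intensities were 39.3 to 44.5 in the 10 hypoxic ischemia arrays and VEH-Sham 5, and 55.4 to 58.0 in VEH-Sham 1 to 4. For most differences from VEH-Sham given below for genes and gene lists, the value against VEH-Sham 5 alone is therefore given as well. It equals the value with the array set as a block. As a check on the tissue, 10 markers of neurons in general, which do not tell forebrain from other brain regions, were all tested, with summed intensities of 24396 to 27421 in EPO-HI, 18915 to 28902 in VEH-HI and 24461 to 29140 in VEH-Sham. Because the RNA came from mixed tissue, fewer cells of a type and less RNA per cell cannot be told apart.

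The main question was what erythropoietin before the injury does to its own receptor pathway. No member passed the test between EPO-HI and VEH-HI. The feedback gene Cish, a textbook STAT5 target, lay at 7.36 ± 0.08 in EPO-HI and 7.46 ± 0.16 in VEH-HI (SD, n = 5 each), and Epor at 6.12 ± 0.40 in EPO-HI and 5.93 ± 0.25 in VEH-HI. Socs3 was at 7.61 ± 0.77 in EPO-HI and 8.02 ± 1.17 in VEH-HI, a difference smaller than either group's spread. With limma, 0 of 22 member probe sets passed at an adjusted p of 0.05, and 0 of all 27022 tested did (0%). At an unadjusted p under 0.05 there was 1 member of 22, against 3.94% of all tested probe sets. The 22 differences ran from -0.59 to 0.22 with a median of -0.04, and 10 were above 0. A 95% interval that held 0 was found for 21 of them, with bounds between -1.24 and 0.61 over all 22. On the linear scale of intensity + 16, the interval of the ratio was 0.80 to 1.08 for Cish, 0.85 to 1.53 for Epor and 0.42 to 1.35 for Socs3. The missed threshold does not show that the groups were equal. The widest intervals left room for changes larger than 2-fold downward in Socs3 and in Pim1 (ratio interval 0.46 to 0.97 at 1435458_at).

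**Figure D1:**
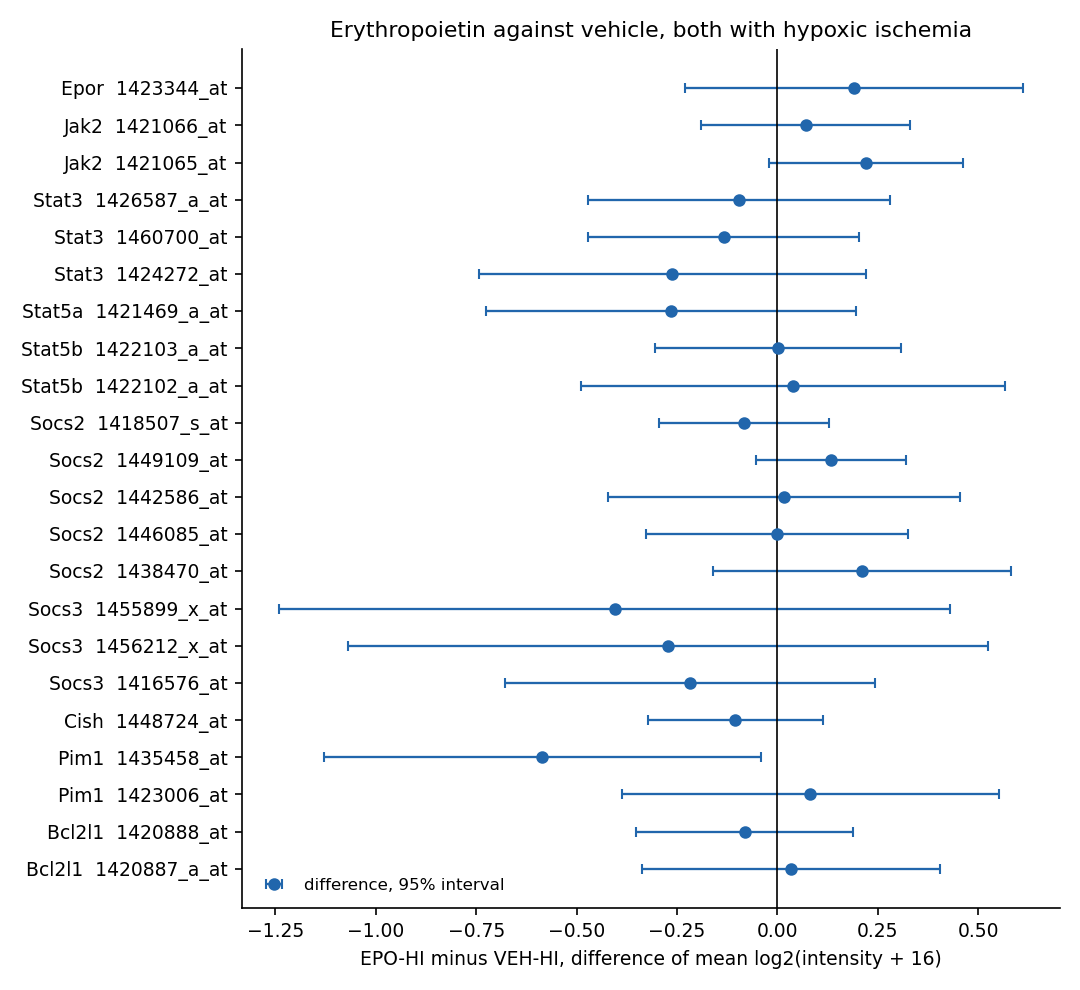
Difference of mean log2(intensity + 16), EPO-HI minus VEH-HI, for the 22 tested member probe sets, with points for the estimate and bars for the 95% interval. The line at 0 lies within 21 of the 22 intervals, and the exception is Pim1 1435458_at at -0.59.

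Hypoxic ischemia with vehicle was set against vehicle and sham surgery to ask what the injury alone does to these genes. Socs3 rose at all 3 of its probe sets, to 8.02 ± 1.17 in VEH-HI against 6.04 ± 0.26 in VEH-Sham at the brightest (SD, n = 5 each), a 3.93-fold difference of intensity + 16. Stat3 rose at its brightest probe set, to 8.70 ± 0.48 in VEH-HI against 7.96 ± 0.15 in VEH-Sham. Epor fell to 5.93 ± 0.25 in VEH-HI against 6.50 ± 0.36 in VEH-Sham. Jak2, Stat5a, Stat5b, Socs2, Cish, Pim1 and Bcl2l1 did not pass at any probe set. These were 5 of 22 member probe sets with limma (22.7%, adjusted p under 0.05), against 22.8% of all tested probe sets, so the members passed no more often than probe sets at large. There were 4 higher and 1 lower, beside 9.85% higher and 13.0% lower over all tested, and 3 of the 4 higher ones measure the same gene. The median member difference was 0.13, and that of all tested probe sets was -0.06. Against VEH-Sham 5 alone 0 members passed, as did 3 of all tested probe sets (0.0111%). There an unadjusted p under 0.05 was reached by 3 of 22 members, beside 6.79% of all tested. That contrast rests on 1 sham array, while against VEH-Sham 1 to 4, with VEH-Sham 5 as a group of its own, 8 members passed beside 35.6% of all tested.

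**Figure D2:**
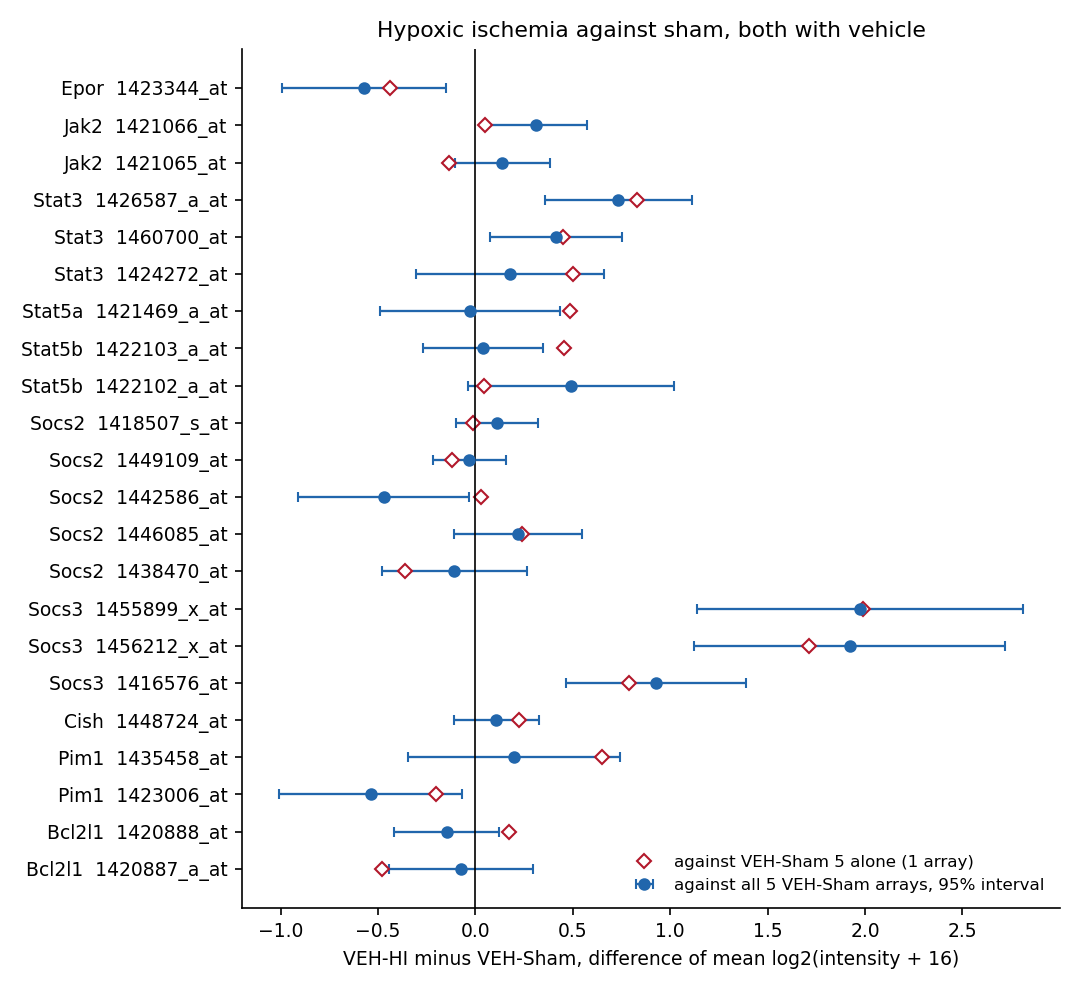
Difference of mean log2(intensity + 16), VEH-HI minus VEH-Sham, for the 22 tested member probe sets, with filled points and 95% intervals against all 5 VEH-Sham arrays and open diamonds against VEH-Sham 5 alone. The 3 Socs3 probe sets lie at 0.93 to 1.97 against all sham arrays and at 0.79 to 1.99 against VEH-Sham 5.

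The third comparison, EPO-HI against VEH-Sham, shares its sham arrays with the one above, so its values are only set beside it. It called 6 of 22 member probe sets (27.3%, limma), all higher, against 18.3% of all tested probe sets and 7.42% called higher. They were the 3 of Socs3, both of Jak2 and the brightest of Stat3. Epor, which was called in VEH-HI, stood at -0.38 in EPO-HI against VEH-Sham (limma adjusted p = 0.185) and at -0.25 against VEH-Sham 5 alone. The difference between EPO-HI and VEH-HI itself was 0.19 (SE 0.20) and did not pass. It ran between 0.09 without VEH-HI 9 and 0.33 without EPO-HI 12. Against VEH-Sham 5 alone 0 members passed, with 4 of all tested probe sets (0.0148%), and 3 of 22 had an unadjusted p under 0.05, beside 4.43% of all tested. Against VEH-Sham 1 to 4 alone 7 members passed, beside 33.5%.

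The receptor gene Epor was measured by 1 probe set (1423344_at), close to the median brightness of its arrays. This probe set was dim, with mean intensities of 55.9 in EPO-HI, 45.8 in VEH-HI and 77.3 in VEH-Sham. Its values in EPO-HI 11 to 15 were 6.45, 5.56, 6.25, 5.85 and 6.50. They were 6.11, 6.06, 6.08, 5.51 and 5.90 in VEH-HI 6 to 10, and 6.43, 6.14, 7.11, 6.48 and 6.37 in VEH-Sham 1 to 5. All 5 VEH-HI arrays lay below all 5 VEH-Sham arrays, while EPO-HI overlapped both groups. The fall in VEH-HI against VEH-Sham was -0.57 (SE 0.20, limma adjusted p = 0.0460), and it was -0.44 against VEH-Sham 5 alone (unadjusted p = 0.224). This call was made in 11 of the 25 settings that ignore the array set, the main one included, with limma adjusted p-values of 0.0326 to 0.199. It no longer passed when EPO-HI 13, any VEH-HI array, or VEH-Sham 1, 3 or 4 was left out. Nor did it pass under quantile normalization, equal array medians or cyclic loess. Whole-array medians were 39.3 to 44.5 in the injured arrays and VEH-Sham 5, and 55.4 to 58.0 in VEH-Sham 1 to 4. The array sets thus differed at about the brightness of Epor, and the part of this in its fall was not tested. In order of level VEH-Sham stood above EPO-HI and EPO-HI above VEH-HI, and neither EPO-HI and VEH-HI nor EPO-HI and VEH-Sham differed beyond the test's threshold.

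The kinase gene Jak2 has 2 probe sets. At the brighter one (1421066_at) the values were 8.58, 8.28, 8.81, 8.49 and 8.70 in EPO-HI 11 to 15. They were 8.53, 8.42, 8.74, 8.44 and 8.38 in VEH-HI 6 to 10, and 7.83, 8.44, 8.03, 8.20 and 8.45 in VEH-Sham 1 to 5. VEH-Sham 2 and 5 lay among the injured arrays, and the other three sham arrays lay below all of them. The difference between EPO-HI and VEH-Sham was 0.38 (limma adjusted p = 0.0395) at this probe set and 0.36 (limma adjusted p = 0.0377) at 1421065_at, but against VEH-Sham 5 alone they were 0.12 and 0.09. These calls were made in 15 and 18 of the 26 settings that ignore the array set, the main one included. In VEH-HI against VEH-Sham the differences were 0.31 and 0.14, with limma adjusted p-values of 0.0766 and 0.404, and 0.05 and -0.13 against VEH-Sham 5 alone. EPO-HI differed from VEH-HI by 0.07 (95% interval -0.19 to 0.33) at the brighter probe set and by 0.22 (95% interval -0.02 to 0.46) at the other.

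Among the transcription factor genes, Stat3 was the one that differed from sham. At its brightest probe set (1426587_a_at) the values were 9.00, 8.24, 8.40, 8.51 and 8.87 in EPO-HI 11 to 15. They were 9.32, 8.84, 8.81, 8.01 and 8.52 in VEH-HI 6 to 10, and 7.89, 7.94, 8.23, 7.89 and 7.87 in VEH-Sham 1 to 5. All EPO-HI arrays lay above all sham arrays, by a margin that VEH-Sham 3 made small, and VEH-HI 9 lay below VEH-Sham 3. VEH-HI exceeded VEH-Sham by 0.73 (SE 0.18, limma adjusted p = 0.00822), and by 0.83 against VEH-Sham 5 alone (unadjusted p = 0.0169). EPO-HI exceeded VEH-Sham by 0.64 (limma adjusted p = 0.0209) and VEH-Sham 5 alone by 0.73. The next brightest Stat3 probe set, 1460700_at, stood at 0.41 in VEH-HI against VEH-Sham (limma adjusted p = 0.0692, 0.45 against VEH-Sham 5 alone), and 1424272_at at 0.18 (limma adjusted p = 0.606, 0.50 against VEH-Sham 5 alone), so the other probe sets had the same sign without passing. Between EPO-HI and VEH-HI the 3 Stat3 differences were -0.09, -0.13 and -0.26, all with intervals that held 0. Without VEH-HI 6 the first 2 were 0.06 and 0.03, and without EPO-HI 12 that of 1424272_at was -0.03.

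The STAT5 genes, which carry the erythropoietin signal in red cell precursors, did not pass in any of the 3 comparisons. Stat5b (1422103_a_at) averaged 6.67 ± 0.25 in EPO-HI, 6.66 ± 0.12 in VEH-HI and 6.63 ± 0.27 in VEH-Sham (SD, n = 5 each). The dimmer Stat5b probe set, 1422102_a_at, stood at 0.49 in VEH-HI against VEH-Sham without passing (limma adjusted p = 0.164), and at 0.04 against VEH-Sham 5 alone. Stat5a (1421469_a_at) averaged 5.67 ± 0.33 in EPO-HI, 5.93 ± 0.32 in VEH-HI and 5.96 ± 0.45 in VEH-Sham. Against VEH-Sham 5 alone, VEH-HI stood at 0.45 for Stat5b and 0.48 for Stat5a. The groups overlapped at both genes, and EPO-HI differed from VEH-HI by 0.00 (95% interval -0.31 to 0.31) for Stat5b and -0.26 (95% interval -0.73 to 0.20) for Stat5a.

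Among the feedback genes, Socs3 differed most from sham and also varied most among injured arrays. At 1455899_x_at the values were 8.39, 6.91, 7.12, 7.15 and 8.50 in EPO-HI 11 to 15. They were 9.51, 7.61, 8.86, 7.57 and 6.55 in VEH-HI 6 to 10, and 6.47, 6.00, 5.78, 5.95 and 6.03 in VEH-Sham 1 to 5. Every injured array lay above every sham array, but within VEH-HI the values spanned a range wider than the gap between the group means. At 1456212_x_at the group means were 7.02 ± 0.58 in EPO-HI, 7.29 ± 1.17 in VEH-HI and 5.37 ± 0.31 in VEH-Sham, again with no overlap with sham. At 1416576_at they were 6.62 ± 0.33 in EPO-HI, 6.84 ± 0.51 in VEH-HI and 5.91 ± 0.35 in VEH-Sham, and 4 of 5 EPO-HI and 5 of 5 VEH-HI arrays lay above all sham arrays. The suffix x marks probe sets with probes that may also bind other transcripts, and the probe set without that suffix gave the smaller difference.

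In VEH-HI against VEH-Sham the 3 Socs3 differences were 1.97 (SE 0.40), 1.92 (SE 0.38) and 0.93 (SE 0.22), with limma adjusted p-values of 0.00294, 0.00264 and 0.00696. Against VEH-Sham 5 alone they were 1.99, 1.71 and 0.79, with unadjusted p-values between 0.0112 and 0.0554, close to the values against all 5 sham arrays. In EPO-HI against VEH-Sham they were 1.57, 1.65 and 0.71 (limma adjusted p = 0.0132, 0.00820 and 0.0320), and 1.59, 1.44 and 0.57 against VEH-Sham 5 alone. Over all tested probe sets, 8.22% of VEH-HI and 7.29% of EPO-HI comparisons with VEH-Sham had groups that did not overlap, beside 4 of 22 and 3 of 22 member probe sets. The EPO-HI minus VEH-HI differences of Socs3 were -0.40 (SE 0.40, 95% interval -1.24 to 0.43), -0.27 and -0.22. They rested on single arrays, since that of 1455899_x_at was -0.03 without VEH-HI 6, -0.20 without VEH-HI 8 and -0.77 without VEH-HI 10. Over the settings run, that of 1456212_x_at ran from -0.61 to 0.11, positive without VEH-HI 6, and that of 1416576_at from -0.36 to -0.06. Among the 10 injured arrays VEH-HI 6, VEH-HI 8 and EPO-HI 15 were the highest at each of the 3 Socs3 probe sets, and VEH-HI 6, EPO-HI 11 and EPO-HI 15 at the 2 brightest Stat3 probe sets.

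**Figure D3:**
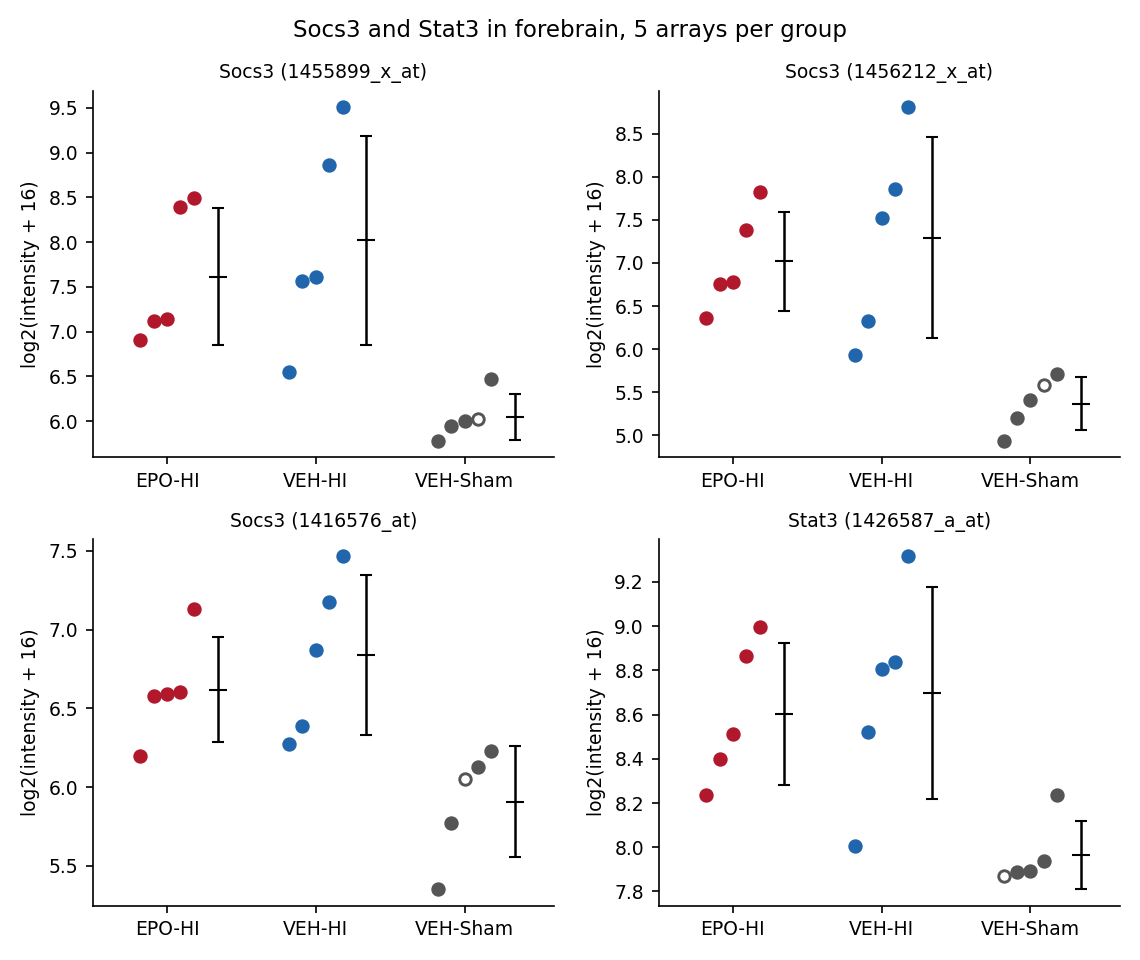
Log2(intensity + 16) of the 3 Socs3 probe sets and the brightest Stat3 probe set in the 5 EPO-HI, 5 VEH-HI and 5 VEH-Sham arrays, with 1 point per array, sorted by value within a group, and bars for mean ± SD. VEH-Sham 5 is drawn open and lies among the other sham arrays for Socs3 and lowest, at 7.87, for Stat3, while the VEH-HI arrays of Socs3 1455899_x_at spread between 6.55 and 9.51.

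The other feedback genes did not follow Socs3. Cish, which encodes the founding member of the SOCS family, was measured by 1 probe set (1448724_at) with values of 7.33, 7.49, 7.32, 7.31 and 7.31 in EPO-HI 11 to 15. They were 7.44, 7.53, 7.54, 7.19 and 7.61 in VEH-HI 6 to 10, and 7.45, 7.25, 7.48, 7.34 and 7.24 in VEH-Sham 1 to 5. All 3 groups overlapped. EPO-HI differed from VEH-HI by -0.10 (SE 0.10, 95% interval -0.32 to 0.11), and VEH-HI from VEH-Sham by 0.11 (limma adjusted p = 0.479) and from VEH-Sham 5 alone by 0.22. Socs2, a further STAT5-driven inhibitor known for restraining growth hormone signalling, averaged 8.96 ± 0.14 in EPO-HI, 9.04 ± 0.21 in VEH-HI and 8.93 ± 0.08 in VEH-Sham at 1418507_s_at. Its 5 tested probe sets gave EPO-HI minus VEH-HI differences of -0.08 to 0.21 and none passed in any comparison. The lowest Socs2 value in VEH-HI against VEH-Sham was -0.47 at 1442586_at (limma adjusted p = 0.108), which was 0.03 against VEH-Sham 5 alone.

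The target genes gave no call. Pim1 at its brighter probe set (1435458_at) had values of 6.07, 4.46, 5.87, 6.16 and 6.18 in EPO-HI 11 to 15. They were 6.61, 6.25, 6.37, 6.25 and 6.19 in VEH-HI 6 to 10, and 6.12, 5.85, 6.53, 6.50 and 5.68 in VEH-Sham 1 to 5. Every EPO-HI array lay below every VEH-HI array, although the nearest 2 differed only in the second decimal. EPO-HI 12 stood far below the rest at this dim probe set, at an intensity of 5.99. Pim1 1435458_at was the only member probe set whose EPO-HI and VEH-HI arrays did not overlap, beside 0.822% of all tested probe sets. The difference was -0.59 (SE 0.26, unadjusted p = 0.0365, limma adjusted p = 1), and without EPO-HI 12 it was -0.26 (unadjusted p = 0.165). The other Pim1 probe set, 1423006_at, had the opposite sign at 0.08 (95% interval -0.39 to 0.55). In VEH-HI against VEH-Sham the 2 Pim1 probe sets also disagreed, at 0.20 and -0.54 (limma adjusted p = 0.612 and 0.0878), and at 0.65 and -0.20 against VEH-Sham 5 alone.

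Bcl2l1 (1420888_at) averaged 8.39 ± 0.15 in EPO-HI, 8.48 ± 0.18 in VEH-HI and 8.62 ± 0.31 in VEH-Sham (SD, n = 5 each). EPO-HI differed from VEH-HI by -0.08 (95% interval -0.35 to 0.19), and by 0.03 at 1420887_a_at. The upper bounds of these intervals were ratios of 1.14 at the brighter and 1.32 at the other probe set. VEH-HI differed from VEH-Sham by -0.15 (limma adjusted p = 0.427) and from VEH-Sham 5 alone by 0.17 at 1420888_at. At 1420887_a_at these differences were -0.07 (limma adjusted p = 0.794) and -0.48. The 5 member probe sets that were too dim to test were 1459961_a_at (Stat3), 1450259_a_at (Stat5a), 1441476_at (Socs2), 1426050_at and 1426191_a_at (Bcl2l1).

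**Figure D4:**
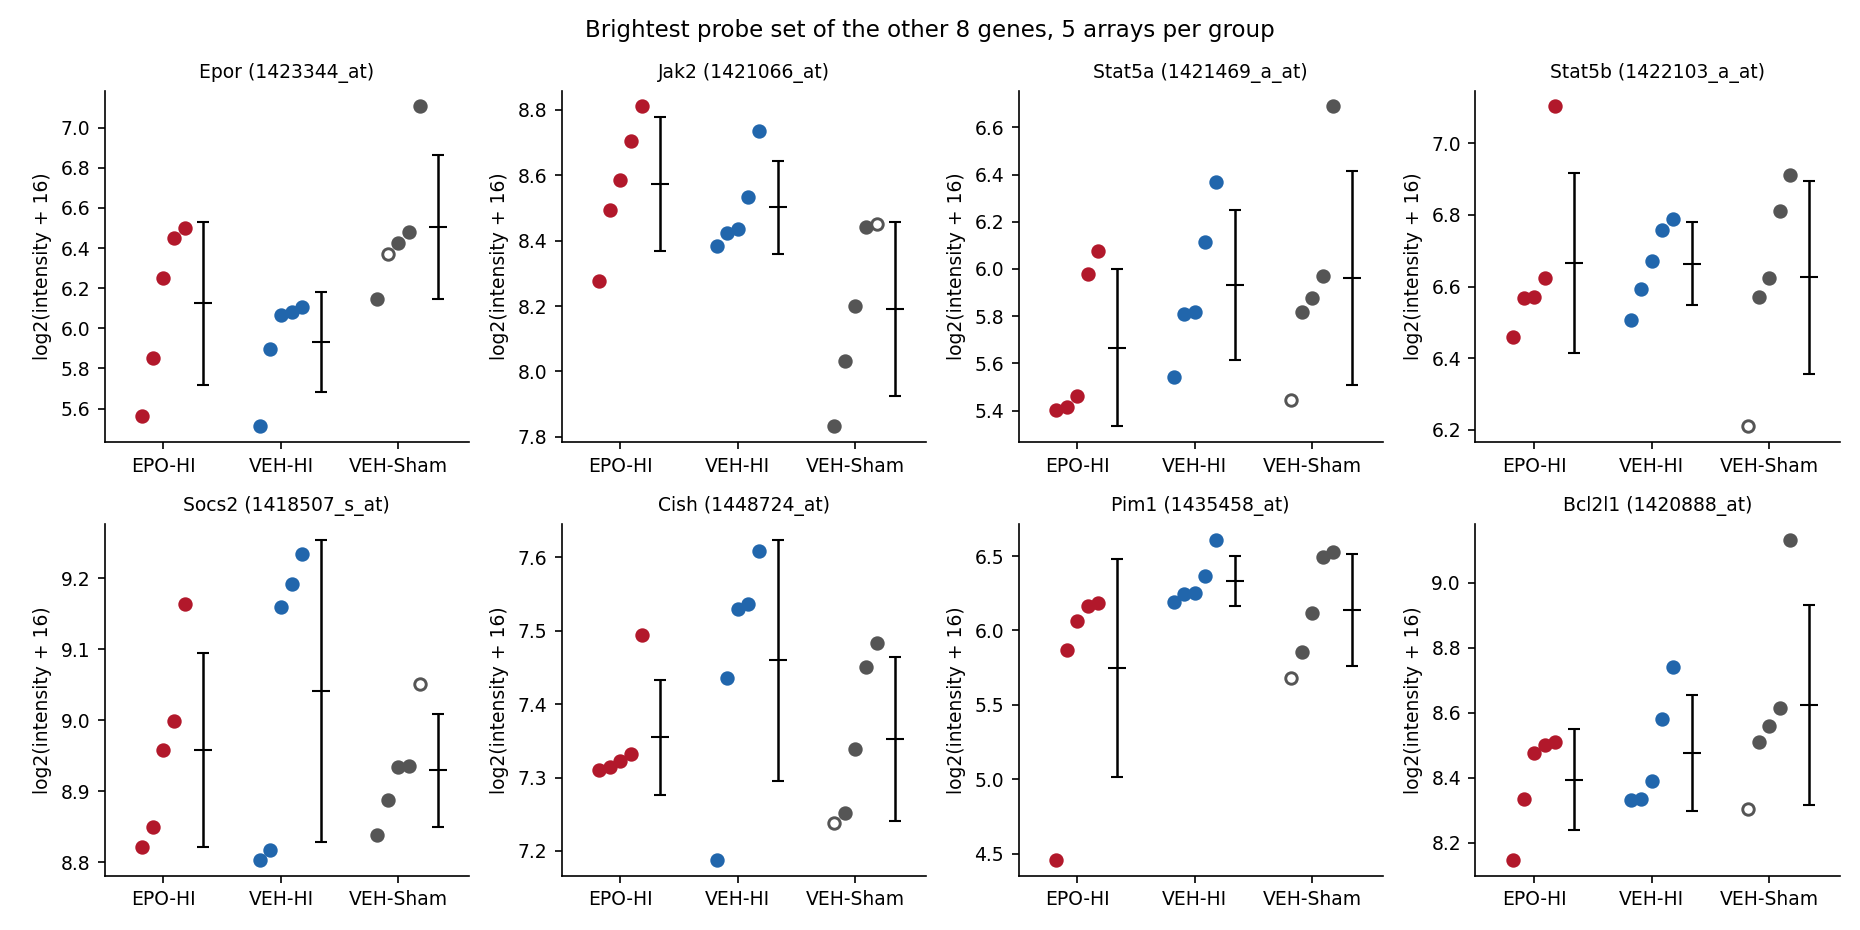
Log2(intensity + 16) at the brightest probe set of Epor, Jak2, Stat5a, Stat5b, Socs2, Cish, Pim1 and Bcl2l1 in the EPO-HI, VEH-HI and VEH-Sham arrays, with 1 point per array, sorted by value within a group, VEH-Sham 5 open, and bars for mean ± SD (n = 5 each). The 5 VEH-HI points of Epor lie below all VEH-Sham points, and the lowest EPO-HI point of Pim1 is EPO-HI 12 at 4.46.

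Other genes of the pathway were taken from 4 lists, chosen with earlier results of these data known, each gene by its brightest tested probe set. Between EPO-HI and VEH-HI 0 of their genes passed. Of all 13168 genes, 11.9% were called higher and 11.5% lower in VEH-HI against VEH-Sham. Of the 16 listed STAT3 and STAT5 target genes other than the members, 15 were tested, 6 rose, 0 fell and 9 did not pass. The median of the 15 was 0.30 (0.29 against VEH-Sham 5 alone), beside -0.02 over all genes. Against VEH-Sham 5 alone the 6 risers ran from -0.03 to 1.32, so not all kept their size. Cebpd, a transcription factor gene induced by STAT3 in glia, rose by 1.75 (SE 0.32, limma adjusted p = 0.00165) and stood at 1.32 against VEH-Sham 5 alone. Osmr, the oncostatin M receptor gene, rose by 1.18 (limma adjusted p = 0.00419, 1.15 against VEH-Sham 5 alone), although its other tested probe set did not share the sign. Id1, a transcriptional regulator gene, rose by 0.62 (limma adjusted p = 0.00365, 0.53 against VEH-Sham 5 alone). Between EPO-HI and VEH-HI the list's median was -0.10, with -0.47 for the interleukin-4 receptor gene Il4ra (unadjusted p = 0.0216) and -0.38 for the oncostatin M gene Osm (unadjusted p = 0.0843).

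Of 11 other inhibitors of the pathway 10 were tested, 2 rose, 1 fell and 7 did not pass in VEH-HI against VEH-Sham, with a median of -0.02 (0.10 against VEH-Sham 5 alone). The phosphatase genes Ptpn1 and Ptpn2 rose by 0.48 and 0.54 (limma adjusted p = 0.00524 and 0.00761), and were at 0.29 and 0.47 against VEH-Sham 5 alone. The 1 other tested probe set of Ptpn1 shared the sign, but for Ptpn2 only 1 of 3 others did. Socs6 fell, at -0.66 (limma adjusted p = 0.00586) but -0.19 against VEH-Sham 5 alone, and 1 of its 2 other tested probe sets shared the sign. Of 7 other JAK and STAT genes 5 were tested, 0 rose and 2 fell: Stat2, which carries interferon signals, at -0.78 (limma adjusted p = 0.00399) and the kinase gene Tyk2 at -0.49 (limma adjusted p = 0.0219). Against VEH-Sham 5 alone they stood at -0.14 and 0.12. The counts of this list were 2 higher and 2 lower under quantile normalization, 2 and 1 with equal array medians, and 1 and 2 under cyclic loess. Of 19 signalling partners of the receptor 18 were tested, 1 rose, 1 fell and 16 did not pass, with a median of 0.06 (0.08 against VEH-Sham 5 alone). Under quantile normalization, equal array medians and cyclic loess 4, 7 and 3 of them were called higher and 0 lower, and with equal medians their median was 0.30. The riser was Akt1, a survival kinase gene, at 0.43 (-0.15 against VEH-Sham 5 alone, and 0 of its 2 other tested probe sets shared the sign), and the faller Sh2b3, which encodes the adaptor LNK that restrains JAK2, at -0.48 (-0.10 against VEH-Sham 5 alone). Csf2rb, the beta common receptor gene proposed as a partner of Epor in tissue protection, did not pass, at 0.56 (limma adjusted p = 0.109, 1.15 against VEH-Sham 5 alone), and was at -0.08 between EPO-HI and VEH-HI. Under quantile normalization, equal array medians and cyclic loess these 10 called genes named here kept their signs, but Sh2b3 no longer passed under any of them (limma adjusted p = 0.111 to 0.218) nor Tyk2 with equal medians (limma adjusted p = 0.144). The list medians between EPO-HI and VEH-HI were 0.01 for the inhibitors, 0.07 for the JAK and STAT genes and 0.01 for the partners, beside -0.01 over all genes.

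**Figure D5:**
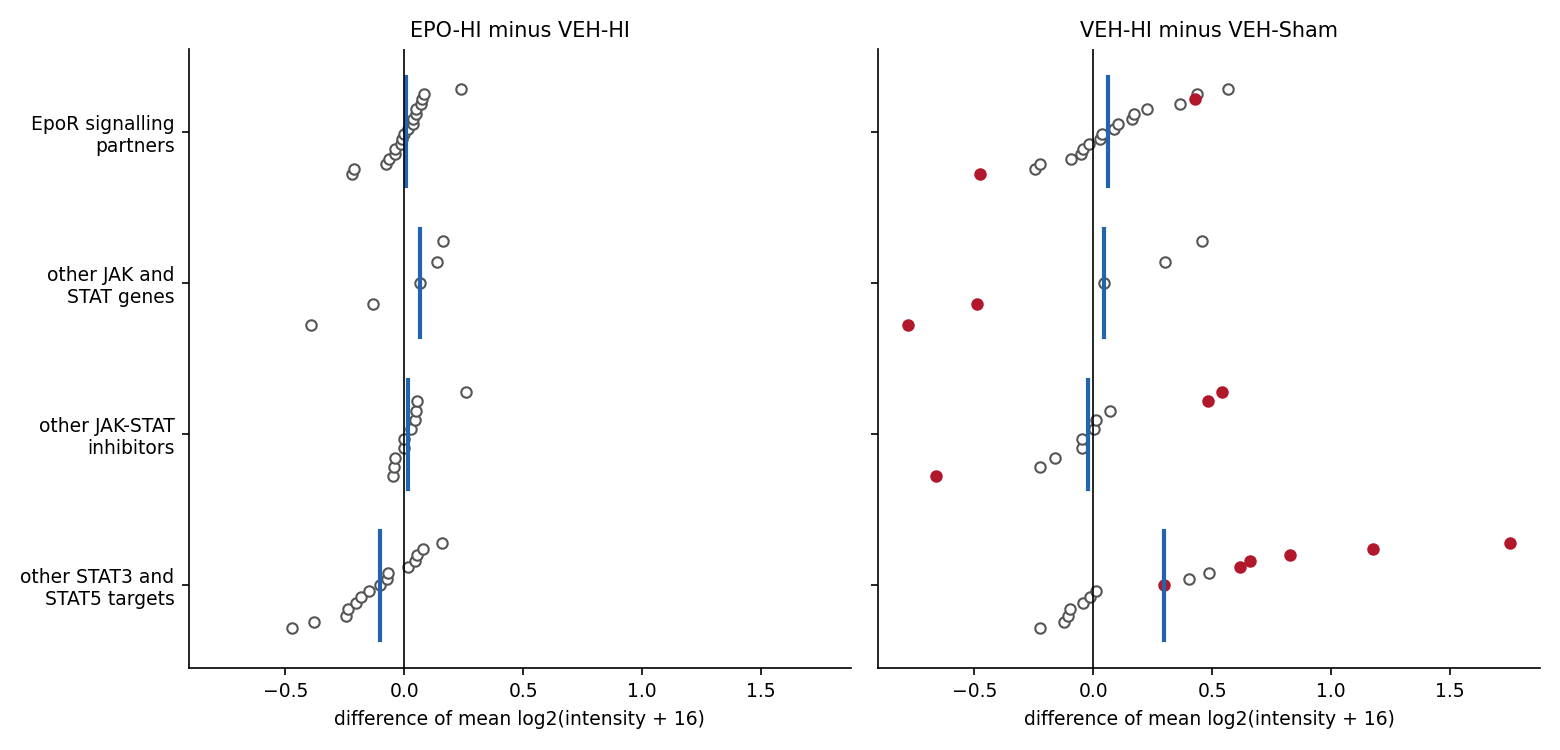
Differences of mean log2(intensity + 16) for the genes of 4 pathway lists, EPO-HI minus VEH-HI on the left and VEH-HI minus VEH-Sham on the right, with 1 point per gene, filled where limma's adjusted p was under 0.05, and a vertical bar at each list's median. The left panel holds 0 filled points, and in the right panel 6 STAT3 and STAT5 target genes are filled, up to 1.75 for Cebpd.

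Markers of reactive astrocytes and of microglia and macrophages mostly rose in VEH-HI against VEH-Sham, as did Socs3 and the brightest Stat3 probe set. Of 10 reactive astrocyte genes 9 were tested, 7 rose and 0 fell in VEH-HI against VEH-Sham, with a median of 1.32 (1.27 against VEH-Sham 5 alone), and Osmr stands in that list as well as among the STAT targets. Their summed intensity was 4325 to 8168 in EPO-HI, 4450 to 10101 in VEH-HI and 2474 to 2693 in VEH-Sham. Of 12 microglia and macrophage markers 11 were tested, 7 rose and 1 fell, with a median of 0.58 (0.73 against VEH-Sham 5 alone), and the sums were 2751 to 3955 in EPO-HI, 3386 to 5024 in VEH-HI and 2373 to 2912 in VEH-Sham. Of 8 neutrophil markers 6 were tested, 2 rose and 0 fell, with a median of 0.56 (0.71 against VEH-Sham 5 alone). Of the 6 differences 4 were above 0, while Mpo and Ngp stood at -0.33 and -0.39 without passing (-0.02 and 0.27 against VEH-Sham 5 alone). The sums were 202 to 969 in EPO-HI, 191 to 2442 in VEH-HI and 165 to 256 in VEH-Sham. Between EPO-HI and VEH-HI the medians were -0.21, -0.22 and -0.28 for these 3 lists, with 0 members called, beside the Socs3 differences of -0.40 to -0.22. Those Socs3 differences rested on single arrays, and that of 1456212_x_at turned positive without VEH-HI 6. The part of astrocytes, microglia, macrophages and neutrophils in the Socs3 and Stat3 values was not tested.

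Markers of the cells best known for Epor gave smaller median differences. Of 9 erythroid and blood genes 4 were tested and 0 were called in VEH-HI against VEH-Sham (median -0.08, but 0.07 against VEH-Sham 5 alone and 0.16 to 0.17 under the other 3 scalings), with summed intensities of 250 to 367 in EPO-HI, 247 to 440 in VEH-HI and 239 to 324 in VEH-Sham, and their EPO-HI minus VEH-HI median was 0.13. Of 8 endothelial markers 1 rose and 1 fell (median 0.23, 0.03 against VEH-Sham 5 alone, and -0.09 between EPO-HI and VEH-HI), with 5 higher, 0 lower and a median of 0.47 under equal array medians and 2 higher and 0 lower under the other scalings, and their sums were 914 to 1153 in EPO-HI, 807 to 1640 in VEH-HI and 919 to 1019 in VEH-Sham. Of 10 neuron markers 0 rose and 1 fell (median -0.14, -0.24 against VEH-Sham 5 alone, and 0.05 between EPO-HI and VEH-HI), with a median of 0.11 in VEH-HI against VEH-Sham under equal array medians and 6 lower calls under quantile normalization and cyclic loess.

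As a description, the genes whose levels most resembled those of Socs3 and Epor over the 10 injured arrays were ranked by Pearson r among 12505 genes. For Socs3 these were Cyp1b1 (0.98), Nfkbia, which encodes an inhibitor of NF-kappaB (0.98), Rasl11a (0.96) and the immediate early genes Fos (0.95) and Nr4a1 (0.95). For Epor they were Bfsp2 (0.92), Exosc2 (0.90), Fndc3a (0.88), Ano4 (0.87) and Ring1 (0.86). All genes of an array share its RNA and hybridisation, and high values are found among so many genes at 10 arrays.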

How the data were processed

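Total RNA of mouse forebrain was measured on 15 Affymetrix arrays. The authors deposited a linear intensity for every probe set on each array, and the sources used here do not name the software that summarised them. Judged by the values, the authors scaled each array to a trimmed mean of 150.0 (2% removed at either end). No 2 arrays held identical values.

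Gene symbols came from the platform annotation and were updated against the gene table of assembly GRCm38.p6, which changed 0 symbols. Of 45037 non-control probe sets 34945 had 1 symbol, 932 several and 9160 none; 64 controls were left out. Intensities were used as log2(intensity + 16). Tests covered the brightest 60% of probe sets by overall mean (27022, mean log2 of at least 5.46; 13168 genes by brightest probe set). One model with 3 group means over all 15 arrays was fitted in limma 3.58.1 (lmFit, eBayes with trend) under R 4.3.3, two-sided, with Benjamini-Hochberg adjustment over all tested probe sets and a threshold of 0.05, and was tested on simulated data. Promoter sequences came from RefSeq. Python 3.11.15 with matplotlib 3.10.9 drew the figures.

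The members and gene lists were chosen with earlier results of these data known. All member probe sets are accounted for. Of each list up to 3 genes with the smallest p after injury and up to 2 after erythropoietin could be named, and Csf2rb in any case. The 5 genes most alike were named for Epor and Socs3. The alternatives were other pseudocounts, filters and scalings, no eBayes trend, VEH-Sham 5 apart or alone, an array-set block and leaving out each array.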

Additional observations from a re-analysis of the deposited data

Results flagged for a closer look

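In each group of 5 arrays the highest and lowest value of every tested member probe set was set against Dixon's 95% critical value for a gap at the end of the range. Of 66 groups 7 held an array that stood apart, and chance alone gives about 1 in 20. EPO-HI 12 accounted for 4 of them. It was low for Pim1 1435458_at at 4.46 (the other EPO-HI arrays 5.87 to 6.18) and for Stat3 1424272_at at 4.60 (5.57 to 5.94). It was also low for Socs2 1442586_at at 5.40 (6.09 to 6.34), and it was high for Cish at 7.49 (7.31 to 7.33). The 3 low values were intensities of 5.99, 8.26 and 26.3 at dim probe sets. EPO-HI 13 was high for Stat5b 1422103_a_at at 7.10 (6.46 to 6.62). VEH-HI 8 was low for Socs2 1446085_at at 5.61 (5.81 to 5.85). VEH-Sham 3 was high for Stat3 1426587_a_at at 8.23 (7.87 to 7.94). Without EPO-HI 12 the EPO-HI minus VEH-HI difference of Pim1 1435458_at was -0.26 in place of -0.59, and that of Stat3 1424272_at was -0.03 in place of -0.26.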

How the results depend on the processing

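No paired analysis was possible because the replicate numbers run through the whole series and no 2 groups share one. Between EPO-HI and VEH-HI, limma called 0 probe sets under all settings except without VEH-HI 8 (4 calls, 0 of them members), so leaving out arrays gave 0 to 4. For VEH-HI minus VEH-Sham the count was 6174 (43.1% higher), 9614 with VEH-Sham 5 as its own group, 3 with the array-set block, which is the same contrast as VEH-Sham 5 alone, and 3824 to 9609 without 1 array; it moved over 1.5 times without VEH-Sham 1, 3, 4 or 5 (4081, 3890, 3824 and 9609). For EPO-HI minus VEH-Sham it was 4939 (40.6% higher), 3008 with the stricter filter, 8603 with equal array medians, 9045 with VEH-Sham 5 as its own group, 4 with the block or VEH-Sham 5 alone, and 2509 to 9047 without 1 array, moving over 1.5 times without VEH-Sham 1 to 5 (2826, 3084, 2691, 2509 and 9047) or EPO-HI 11 (3202). Called members of VEH-HI minus VEH-Sham numbered 5, 10 with equal medians, 8 with VEH-Sham 5 as its own group, 0 with the block or VEH-Sham 5 alone, and 4 to 8 without 1 array. Those of EPO-HI minus VEH-Sham numbered 6, 10 with equal medians, 0 with the block or VEH-Sham 5 alone, and 2 to 7 without 1 array (2 without VEH-Sham 4, EPO-HI 11 or EPO-HI 15, and 3 without EPO-HI 14). The share of higher calls depended on scaling: with quantile normalization, equal medians, cyclic loess and the stricter filter it was 53.3%, 85.6%, 53.0% and 55.5% for VEH-HI minus VEH-Sham, and 53.4%, 88.7%, 50.9% and 55.9% for EPO-HI minus VEH-Sham. Equal medians moved the median of all probe sets to 0.18 and 0.22, against -0.06 and -0.05 as deposited. In VEH-HI minus VEH-Sham, Stat3 1426587_a_at and the 3 Socs3 probe sets passed in all 26 settings that ignore the array set, the main one included. In the same comparison Epor stood at -0.37, -0.33 and -0.37 without passing under quantile, equal medians and cyclic loess. In EPO-HI minus VEH-Sham, Socs3 passed in 26, 26 and 21 and Stat3 1426587_a_at in 23 of 26. No called member changed direction in any setting run, and the cause of these shifts was not tested. With 5 arrays a group and 1 sham array in the set of the injured arrays, the number of arrays limits the precision.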
